A study of Mus musculus with 6 samples.

Results

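The peaks compared here mark estrogen receptor alpha (ERα) on chromatin of the AF-2 mutant mouse uterus after fulvestrant (ICI in the labels) and after vehicle. They were all peaks of 2 deposited lists, 45837 with ICI and 5027 with vehicle, together 50864 of the 154923 peaks in the 6 lists of the study. Peaks were classed by an overlap of 1 bp or more between the lists, which gave ICI peaks with and without a vehicle peak, and vehicle peaks with and without an ICI peak. The mice of both groups were ovariectomized C57BL/6J females aged 12 weeks that carried ERα with a mutated activation function 2 (AF2ERKI). One group received ICI at 2 mg/kg in DMSO by intraperitoneal injection and the other 50 µl DMSO, and uteri were taken after 1 h. Each list is 1 ERα chromatin immunoprecipitation sequencing (ChIP-seq) library from a pool of 6 uteri, so no value has a spread between replicates, and intervals below (95%) cover counting error only. The other 4 lists are mutant tamoxifen, wild-type ICI, wild-type tamoxifen and wild-type vehicle. The titles also hold a code, E1h, that the labels leave unexplained and that was taken as the treatment time.

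ERα is a nuclear receptor that binds DNA at estrogen response elements and, through other factors, at further enhancers. Activation function 2 is the surface of its ligand-binding domain that recruits coactivators once an agonist is bound. Fulvestrant is a steroidal antagonist that keeps this surface from forming and promotes loss of the receptor protein, and in mice with a mutated AF-2 it is known to act as an agonist in some tissues. In the uterus, ERα drives epithelial growth and secretion through both epithelial and stromal cells. Uteri were used whole, so the lists do not separate these cell types, and neither the mutation nor the specificity of the antibody can be checked from peak positions.

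In the mutant uterus, ICI gave 9.12 times as many ERα peaks as vehicle (8.86 to 9.39). The ICI list took in most vehicle sites and added many more. Of the 45837 ICI peaks, 3076 overlapped a vehicle peak, a share of 6.71% (6.48 to 6.94), and 42761 did not. Of the 5027 vehicle peaks, 3075 overlapped an ICI peak, a share of 61.2% (59.8 to 62.5), and 1952 did not. Matches were nearly all one to one, with 1 vehicle peak that touched 2 ICI peaks. All peaks are 200 bp wide and carry no height or score, and their read depth is unknown. A longer list can come from the receptor, the depth of the library or the peak threshold, and these cannot be told apart. Absence from a list is therefore not absence of binding.

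By the overlap rule, the midpoints of matched peaks cannot lie 200 bp or more apart, and most lay much closer than that. The midpoints of matched peaks lay a median of 27 bp apart (quartiles 10 and 54.5 bp), 40 vehicle peaks had an ICI peak at the identical position, and 71.6% of the matched vehicle peaks lay within less than 50 bp. The numbers thinned towards the limit of overlap without a break at it. Midpoint distances of 100 to under 150 bp were found for 202 vehicle peaks and of 150 to under 200 bp for 136, just inside the limit. Just outside it, 92 vehicle peaks had their nearest ICI peak at 200 to under 250 bp and 79 at 250 to under 300 bp. The first matched site along chromosome 1 shows the usual offset. Its ICI peak lay at 4764364 to 4764563 and its vehicle peak at 4764347 to 4764546 (mm9, counted from 1, as for all coordinates here).

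The classes differed most in the 4 lists that the classing did not use. Vehicle peaks with an ICI peak were mostly found again in those lists, and vehicle peaks without one were mostly not. At least 1 of the other 4 lists held 92.5% of vehicle peaks with an ICI peak (91.5 to 93.4), against 38.6% of those without one (36.5 to 40.8), where all vehicle peaks gave 71.6%. The difference was 53.9 percentage points (51.5 to 56.2) and had this direction on 20 of 20 chromosomes (1 to 19 and X), from 44.5 to 66.1 points. In the mutant tamoxifen list, from mice of the same genotype, the shares were 87.2% with an ICI peak (85.9 to 88.3) and 22.3% without (20.5 to 24.2), against 62.0% of all vehicle peaks. For wild-type tamoxifen they were 63.5% (61.7 to 65.2) and 13.1% (11.6 to 14.7), against 43.9% of all. For wild-type ICI they were 47.8% (46.0 to 49.6) and 11.6% (10.2 to 13.1), against 33.7% of all. For wild-type vehicle, the other list made without a ligand, they were 28.7% (27.1 to 30.3) and 10.9% (9.51 to 12.3), against 21.7% of all. Vehicle peaks that the mutant ICI list lacked were thus also less often in the wild-type vehicle list, by 17.8 points (15.6 to 19.9).

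Of the 1952 vehicle peaks without an ICI peak, 1198 were in no other list of the study. This was a share of 61.4% (59.2 to 63.5), where 28.4% of all vehicle peaks were in none of the other 4 lists. Another 480 were in exactly 1 other list (24.6%), close to the 22.6% of all vehicle peaks. Of these 480, 223 were in mutant tamoxifen alone, 11.4% of the class against 17.5% of vehicle peaks with an ICI peak. A further 102 were in wild-type vehicle alone, 5.23% of the class against 1.14%. Shares were 4.56% against 1.37% for wild-type ICI alone and 3.38% against 1.33% for wild-type tamoxifen alone. Sites seen in all 4 other lists numbered 434 among the vehicle peaks with an ICI peak (14.1%), against 16 among those without (0.820%), where all vehicle peaks gave 8.95%. The first vehicle peak without an ICI peak along chromosome 1, at 4416945 to 4417144, was in none of the other lists. The class thus split into a larger group of peaks called in a single library and a smaller group that other libraries held as well.

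ICI peaks with a vehicle peak were also found more often in other libraries than ICI peaks without one, by a smaller margin. At least 1 of the other 4 lists held 92.5% of them (91.5 to 93.4), against 80.9% of ICI peaks without a vehicle peak (80.6 to 81.3), where all ICI peaks gave 81.7%. The difference of 11.6 points (10.5 to 12.5) had this direction on 20 of 20 chromosomes. It was uneven over the lists. For wild-type vehicle the shares were 28.4% with a mutant vehicle peak (26.8 to 30.0) and 4.68% without (4.48 to 4.88), where 6.27% of all ICI peaks overlapped that list. For mutant tamoxifen they were 87.1% (85.9 to 88.3) and 66.9% (66.4 to 67.3), where all ICI peaks gave 68.2%. The remaining lists differed less between the classes. Wild-type ICI held 47.8% (46.0 to 49.6) and 41.6% (41.2 to 42.1), against 42.0% of all ICI peaks. This difference of 6.16 points (4.34 to 7.99) was above 0 on 18 of 20 chromosomes, and it was 2.18 points with an overlap of at least 100 bp and 12.5 with midpoints within 1 kb counted as shared. Wild-type tamoxifen held 63.3% (61.6 to 65.0) and 60.5% (60.1 to 61.0), against 60.7% of all. On single chromosomes the wild-type tamoxifen difference ran from -5.32 to 12.7 points, and it was above 0 on 16 of 20.

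**Figure D1:**
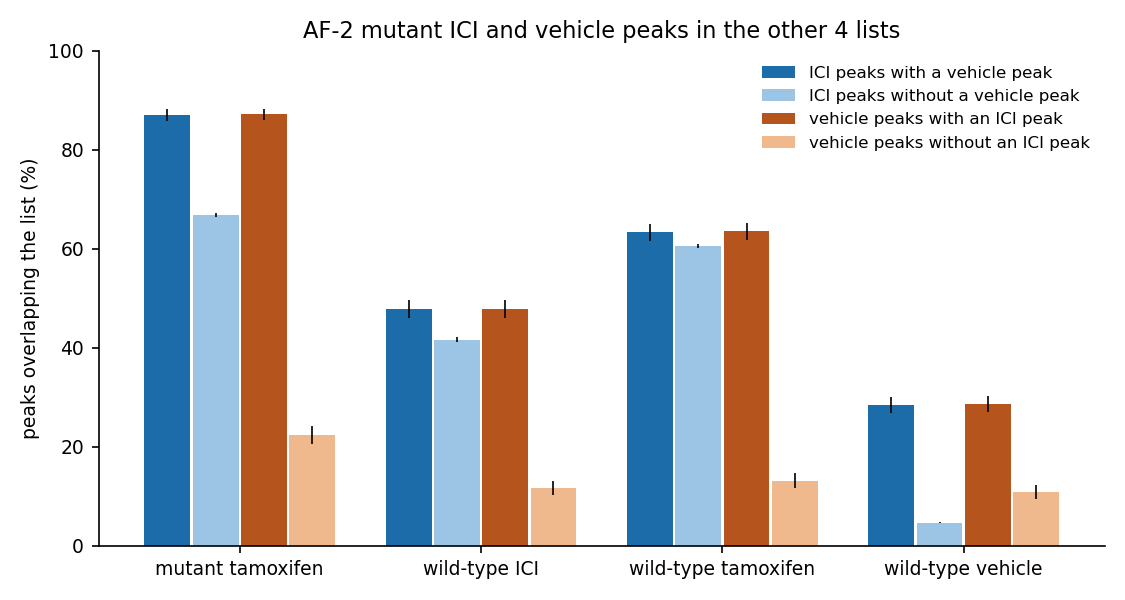
Share of mutant ICI peaks (blue) and mutant vehicle peaks (orange) that overlap each of the other 4 lists, in percent of the class; dark bars are peaks with a peak in the other mutant list and light bars those without, and error bars are exact 95% binomial intervals. Vehicle peaks with an ICI peak reach 28.7% to 87.2% over the lists, against 10.9% to 22.3% for vehicle peaks without one.

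ICI peaks in none of the other 4 lists numbered 8153 among those without a vehicle peak (19.1%, 18.7 to 19.4). Among those with a vehicle peak they numbered 230 (7.48%, 6.57 to 8.46), where all ICI peaks gave 18.3%. The first ICI peak without a vehicle peak along chromosome 1, at 3349947 to 3350146, was instead shared with mutant tamoxifen, wild-type ICI and wild-type tamoxifen, a pattern of ligand-treated libraries of both genotypes. Presence in exactly 3 of the other lists was found for 1086 ICI peaks with a vehicle peak (35.3%, 33.6 to 37.0) and for 12355 without one (28.9%, 28.5 to 29.3), where all ICI peaks gave 29.3%. Presence in all 4 was found for 430 with a vehicle peak (13.98%, 12.8 to 15.3) and for 1686 without one (3.94%, 3.76 to 4.13), where all ICI peaks gave 4.62%.

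ICI peaks were closely spaced, and the difference between those with and without a vehicle peak was small and depended on how matches were defined. Another ICI peak lay within 10 kb (between midpoints) of 60.6% of ICI peaks. The share was 59.6% for ICI peaks with a vehicle peak (57.9 to 61.4) and 60.7% for those without (60.3 to 61.2), a difference of -1.09 points whose interval included 0 (-2.90 to 0.689). It was -1.94 points (-3.85 to -0.0542) with an overlap of at least 100 bp and -2.19 (-4.03 to -0.344) with peaks within 1 kb merged, and it turned to 4.55 (3.001 to 6.07) with midpoints within 1 kb counted as shared. The median distance to the nearest other ICI peak was 6.59 kb with a vehicle peak and 6.51 kb without. At the shortest range the shares parted a little. Within 1 kb, 19.5% of ICI peaks with a vehicle peak had another ICI peak (18.1 to 21.0), against 16.9% of those without (16.6 to 17.3), where all ICI peaks gave 17.1%. This difference of 2.58 points (1.18 to 4.06) was higher on 15 of 20 chromosomes. No pair of peaks within the ICI list had midpoints closer than 269 bp.

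Vehicle peaks were far sparser. The nearest other vehicle peak lay at a median of 87.3 kb, and 11.6% of vehicle peaks had another within 10 kb. Those with an ICI peak had such a neighbour more often, at 13.1% (11.9 to 14.3), than those without, at 9.32% (8.07 to 10.7). The difference of 3.78 points (1.99 to 5.51) was found on 17 of 20 chromosomes. This was not a general shift in spacing. The median distance to the nearest other vehicle peak was 85.7 kb with an ICI peak and 88.2 kb without, and the upper quartiles were 217606 and 208796 bp. Within 50 kb the difference was 2.30 points with an interval that included 0 (-0.413 to 4.99). Within 1 kb the shares were 3.25% (2.65 to 3.94) and 3.33% (2.58 to 4.22), against 3.28% of all vehicle peaks.

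Vehicle peaks without an ICI peak nevertheless lay in neighbourhoods rich in ICI peaks. Their nearest ICI peak was a median of 7.82 kb away (quartiles 1114.5 and 26982 bp), whereas the nearest vehicle peak of ICI peaks without one lay a median of 98.1 kb away, which follows the difference in list length. Within 1 kb of an ICI peak lay 459 of the 1952 (23.5%, 21.6 to 25.5), a further 605 within 10 kb (31.0%, 28.9 to 33.1) and 631 within 50 kb (32.3%, 30.3 to 34.5). The remaining 257 were farther than 50 kb from any ICI peak (13.2%, 11.7 to 14.7). Presence in at least 1 of the other 4 lists showed no steady trend with this distance. It was 42.7% within 1 kb (38.1 to 47.4), 34.2% from 1 to 10 kb (30.4 to 38.1), 37.9% from 10 to 50 kb (34.1 to 41.8) and 43.6% beyond 50 kb (37.4 to 49.9). Wild-type ICI held 16.1% within 1 kb (12.9 to 19.8) and 8.26% from 1 to 10 kb (6.20 to 10.8). Wild-type vehicle held 13.9% (10.9 to 17.5) and 7.44% (5.48 to 9.83). Mutant tamoxifen (22.2% and 22.8%) and wild-type tamoxifen (12.6% and 12.1%) hardly changed between these bands.

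The density of ICI peaks around each class was highest close by. At 0.5 to 1 kb, ICI peaks numbered 132 per Mb around ICI peaks with a vehicle peak, 114 around ICI peaks without one and 95.3 around vehicle peaks without an ICI peak. From 2 to 5 kb the densities were 41.2, 46.8 and 36.7 per Mb for the same classes. From 5 to 10 kb they were 50.3, 51.6 and 36.3, above the previous band around ICI peaks of both classes and nearly level around vehicle peaks without an ICI peak. At 500 to 1000 kb they were 26.0, 26.2 and 25.03. The mean over chromosomes 1 to 19 was 18.2 ICI peaks per Mb. All of these bands were thus above the chromosome mean. A non-overlapping ICI peak lay within 10 kb of 57.6% of all vehicle peaks. The share was 59.6% for vehicle peaks with an ICI peak (57.9 to 61.4) and 54.5% for those without (52.3 to 56.7). The direction of that difference, 5.13 points (2.33 to 7.94), was not stable: within 5 kb it was -0.59 points, and within 1 kb -4.39 points (-6.75 to -2.07). The peaks just outside the limit of overlap count as neighbours of the class without an ICI peak and add to the short range.

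**Figure D2:**
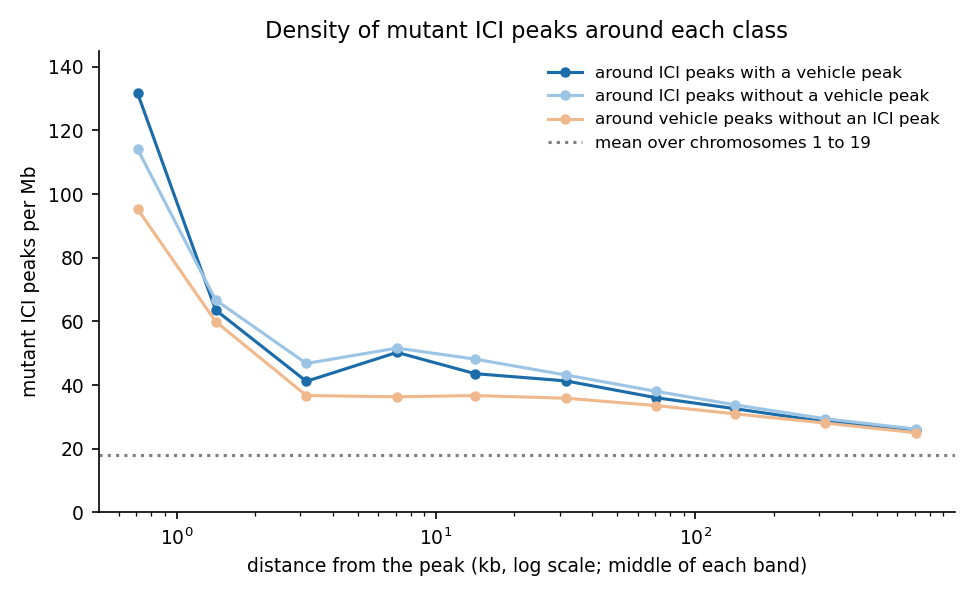
Mean number of mutant ICI peaks per Mb (y axis, linear) in bands of distance from 0.5 to 1000 kb (x axis, log scale, each point at the geometric middle of its band) around 3 classes of peak, with the mean of chromosomes 1 to 19 as a dotted line. Each class starts between 95.3 and 132 per Mb at the closest band and ends between 25.03 and 26.2 at the farthest, above the dotted line at 18.2.

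In windows of 100 kb, the lists followed each other. ICI peaks occupied 13932 of 26368 windows (52.8%) and vehicle peaks 4021 (15.2%), and 94.0% of the windows with a vehicle peak also had an ICI peak. The share of windows with a vehicle peak was 1.94% (1.70 to 2.20) where there was no ICI peak and 13.2% (12.2 to 14.2) where there was 1. It was 25.3% (24.1 to 26.6) with 2 to 3 ICI peaks, 37.8% (36.2 to 39.4) with 4 to 7, 53.4% (50.3 to 56.4) with 8 to 15 and 76.6% (62.0 to 87.7) in the 47 windows with 16 or more. Part of this follows from the overlap itself, since a matched vehicle peak needs an ICI peak in or at the edge of its window. Vehicle peaks without an ICI peak, which do not, also became more frequent, from 0.0207 per window without an ICI peak to 0.0682 with 1, 0.111 with 2 to 3, 0.167 with 4 to 7 and 0.227 with 8 to 15. The windows with 16 or more ICI peaks held 0.213 per window, from 10 such peaks. Of the 1952 vehicle peaks without an ICI peak, 459 lay within 1 kb of one and so mostly share its window. Their part in this rise was not tested.

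**Figure D3:**
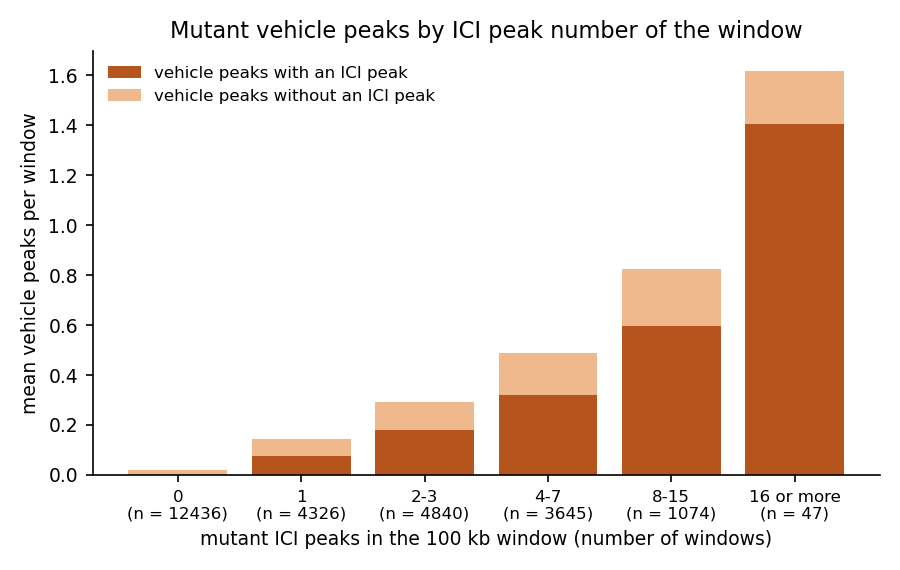
Mean number of mutant vehicle peaks per 100 kb window (y axis), stacked by whether the vehicle peak overlaps an ICI peak, for windows grouped by their number of mutant ICI peaks (x axis, number of windows in brackets). The light part, vehicle peaks without an ICI peak, goes from 0.0207 in windows without ICI peaks to 0.227 in windows with 8 to 15.

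Dense ICI windows did not all hold vehicle peaks. Of the 496 windows with 10 or more ICI peaks, 206 had 0 vehicle peaks. Over all 26368 windows, 15.2% had a vehicle peak, so dense windows lacked one less often than windows in general. The window with most ICI peaks of the class without a vehicle peak, on chromosome 14 at 26300001 to 26400000, had 23 of them and no vehicle peak. Next in that class came a window of chromosome 4, 149200001 to 149300000, with 20 beside 2 ICI peaks that overlapped a vehicle peak. A window of chromosome 8, 122500001 to 122600000, had 20 beside 1 that did. At the other end, all 5 vehicle peaks of a chromosome 5 window (120000001 to 120100000) were matched among 19 ICI peaks, and wild-type vehicle had 6 peaks there. A chromosome 18 window (62900001 to 63000000) also had 5 vehicle peaks, matched among 15 ICI peaks, and 1 wild-type vehicle peak. The third by rule, on chromosome 1 at 74000001 to 74100000, had 4 matched vehicle peaks among 22 ICI peaks and no wild-type vehicle peak, and was 1 of 16 windows with exactly 4 matched ICI peaks.

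Windows with several vehicle peaks that ICI lacked were few. The most in a window was 4, found on chromosome 2 (153300001 to 153400000) beside 10 ICI peaks and on X (96600001 to 96700000) beside 11. The window on chromosome 1 at 75400001 to 75500000 had 3 such peaks beside 4 ICI peaks and 8 mutant tamoxifen peaks, and was 1 of 17 windows with exactly 3. The vehicle peak farthest from any ICI peak lay on chromosome 7 (64846359 to 64846558), 1026 kb from the nearest. The next were on chromosome 12 (18616653 to 18616852), 758 kb away, and on X (119510719 to 119510918), 706 kb away. None of these 3 was in another list.

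ICI peaks with gaps of at most 10 kb between neighbours were joined to runs, and runs of 5 or more peaks are called clusters here. There were 966 clusters with 6372 ICI peaks, 13.9% of the list (13.6 to 14.2), over 22.5 Mb in all. A cluster held a median of 6 ICI peaks over 21.1 kb, and the largest held 25 over 90.4 kb. At the other end, 17826 ICI peaks (38.9%) stood alone. By the same rule, the vehicle list formed 0 clusters. Mutant tamoxifen formed 607 with 10.7% of its 36538 peaks, wild-type ICI 144 with 3.04% of 26482 and wild-type tamoxifen 543 with 8.97% of 37327. Lists of other lengths are not directly comparable in this respect, but the order of the tamoxifen lists did not follow their length.

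The share of ICI peaks with a vehicle peak showed no steady trend with run size and was lowest in runs of 5 to 9. It was 6.90% (6.53 to 7.28) for ICI peaks that stood alone and 6.71% (6.26 to 7.19) in runs of 2. It was 6.85% (6.37 to 7.36) in runs of 3 to 4, 5.68% (5.07 to 6.34) in runs of 5 to 9 and 7.20% (5.75 to 8.88) in runs of 10 or more. Within clusters it was 5.90% (4.89 to 7.05) for the outermost peaks and 5.97% (5.29 to 6.71) for those inside. Clusters held 12.3% of ICI peaks with a vehicle peak (11.2 to 13.5) and 14.02% of those without (13.7 to 14.3), a difference of -1.69 points (-2.86 to -0.442) that turned to 0.19 when a cluster needed 10 peaks.

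Mutant tamoxifen and wild-type ICI followed run size unequally. Mutant tamoxifen held 63.3% of lone ICI peaks, 68.3% in runs of 2, 71.8% in runs of 3 to 4, 75.7% in runs of 5 to 9 and 79.4% in runs of 10 or more. Wild-type ICI held 40.3%, 42.8%, 43.3%, 43.7% and 42.9% over the same sizes. Mutant ICI peaks of long runs were thus more often mutant tamoxifen sites as well, whereas their share in the wild-type ICI list stayed between 40.3% and 43.7%. These lists differ in length, with 36538 and 26482 peaks. Wild-type tamoxifen was not compared by run size, so ligand and genotype cannot be told apart here.

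At least 1 vehicle peak, matched or not, lay in 354 of the 966 clusters (36.6%), and 77 had 2 or more. Of the 92 clusters with 10 or more ICI peaks, 37 had none. Of the 3075 vehicle peaks with an ICI peak, 379 lay inside a cluster (12.3%, 11.2 to 13.5). Of the 1952 without, 81 did (4.15%, 3.31 to 5.13), and these classes make up the whole vehicle list of 5027. This gap of 8.18 points (6.69 to 9.62) is partly set by the classes, since a matched peak sits on an ICI peak and an unmatched one must fall between ICI peaks.

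The largest clusters show how ICI peaks were arranged. The cluster of 25 was on chromosome 5 (35944161 to 36034550), with a median spacing of 2.86 kb. A single vehicle peak lay in it, matched to the first ICI peak of the cluster. Of its ICI peaks, 22 were also mutant tamoxifen sites and 13 wild-type ICI sites. The cluster of 21, on chromosome 8 at 122510594 to 122599727, had every ICI peak in the mutant tamoxifen list, 9 in the wild-type ICI list and 1 with a vehicle peak.

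Next came 20 ICI peaks on chromosome 12 at 81026266 to 81113287, where the mutant vehicle list had 0 peaks and the wild-type vehicle list 1. In a second cluster on chromosome 5, at 125590313 to 125661267, 18 ICI peaks were all in at least 1 other list, and the 1 vehicle peak there was not matched. The fifth, on chromosome 4 at 45474632 to 45552949, was 1 of 5 clusters with 17 ICI peaks, of which 12 were in mutant tamoxifen and 6 in wild-type ICI; 4 of the 17 were in none of the other lists. In each of these 5 clusters the ligand lists of both genotypes had several peaks and the mutant vehicle list at most 1. The clusters were chosen for their number of ICI peaks, and 6.71% of all ICI peaks overlapped a vehicle peak. Few vehicle peaks are therefore not a trait particular to these clusters.

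**Figure D4:**
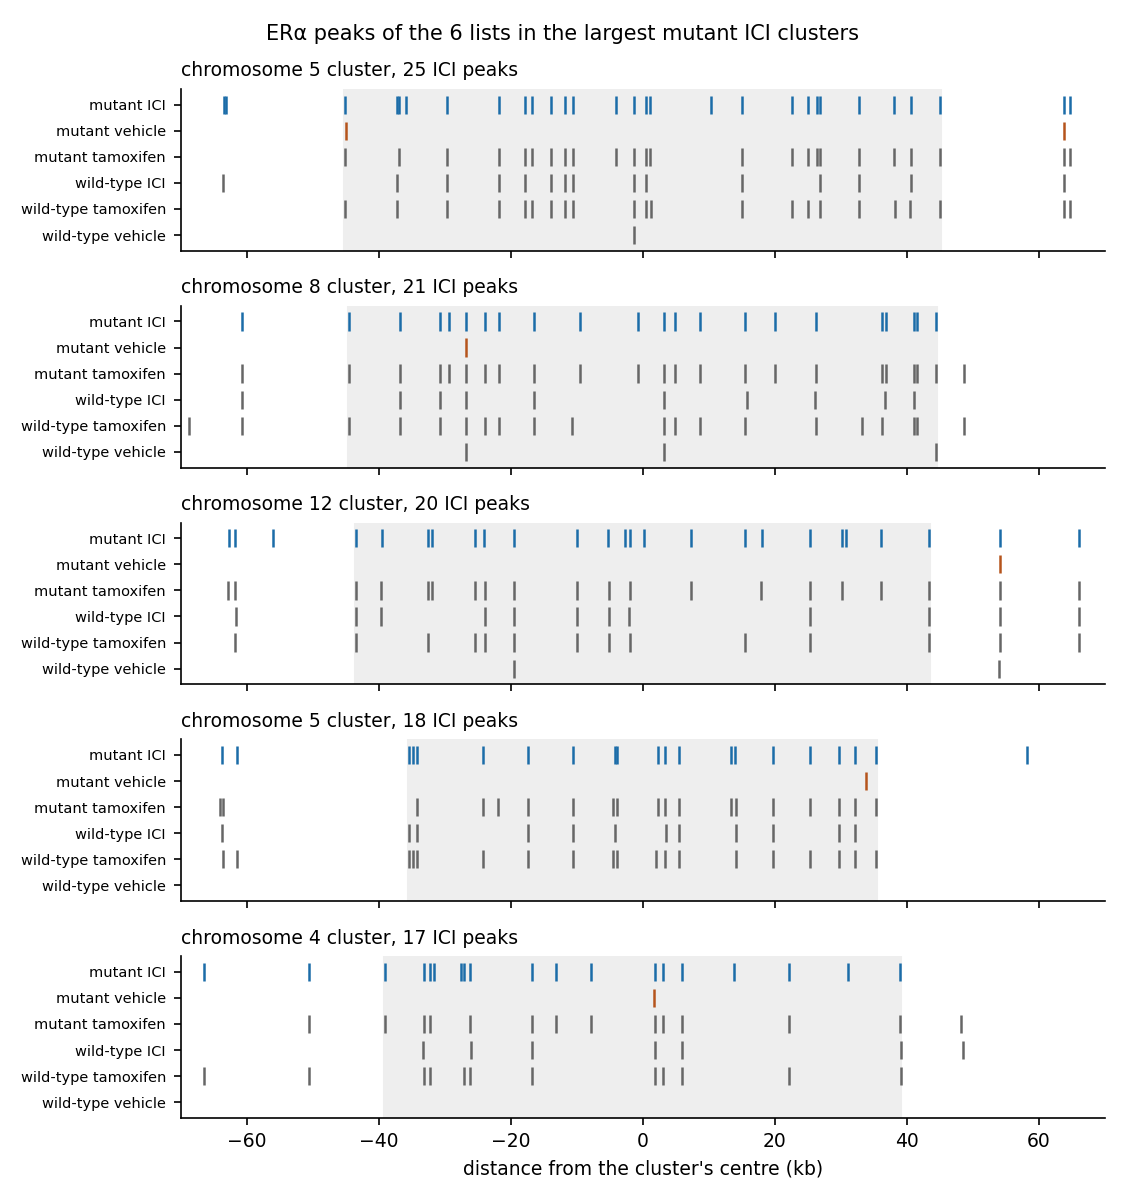
Positions of peaks in the 6 lists (rows) within 70 kb of the centre of each of the 5 mutant ICI clusters with most peaks; the x axis is the distance from the cluster's centre in kb, each line is 1 peak and the grey band is the cluster. Mutant ICI has 17 to 25 peaks in the grey bands and mutant vehicle 0 or 1. The clusters were chosen for most ICI peaks, and 6.71% of all ICI peaks overlap a vehicle peak.

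Clusters with most vehicle peaks were others. On chromosome 11 at 35065579 to 35107033, 10 ICI peaks and 5 vehicle peaks lay within 41.5 kb, with 3 ICI peaks matched, and wild-type vehicle had 1 peak there. On chromosome 1 at 74002060 to 74063427, 14 ICI peaks included 4 that overlapped a vehicle peak, which accounts for all 4 vehicle peaks, and wild-type vehicle had 0. Also on chromosome 1, at 75334709 to 75379517, 14 ICI peaks and 4 vehicle peaks were found, with 3 matched and 2 wild-type vehicle peaks. In all, 6 clusters had exactly 4 vehicle peaks, and no replicate shows how such small counts vary.

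Along the genome, ICI and vehicle peaks had similar distributions over chromosomes. ICI density ran from 5.56 peaks per Mb on chromosome X to 25.4 on chromosome 11, with a median of 17.97 over 20 chromosomes. Vehicle density ran from 0.847 per Mb on X to 2.91 on 11, with a median of 1.85. Lengths were taken to the last peak end of any list. The ratio of ICI to vehicle peak number was 6.56 on X (5.49 to 7.89), against 9.19 over chromosomes 1 to 19 (8.92 to 9.47), and among single chromosomes it was highest on 3, at 11.4 (9.88 to 13.3). X was the chromosome with the lowest ratio, the smallest share of ICI peaks in clusters (4.76%, against a median of 13.6% over all 20) and the smallest share of vehicle peaks with an ICI peak, 54.6% (46.0 to 63.0), whose interval includes the 61.4% of chromosomes 1 to 19. That share was highest on chromosome 1, at 69.6% (64.4 to 74.4).

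**Figure D5:**
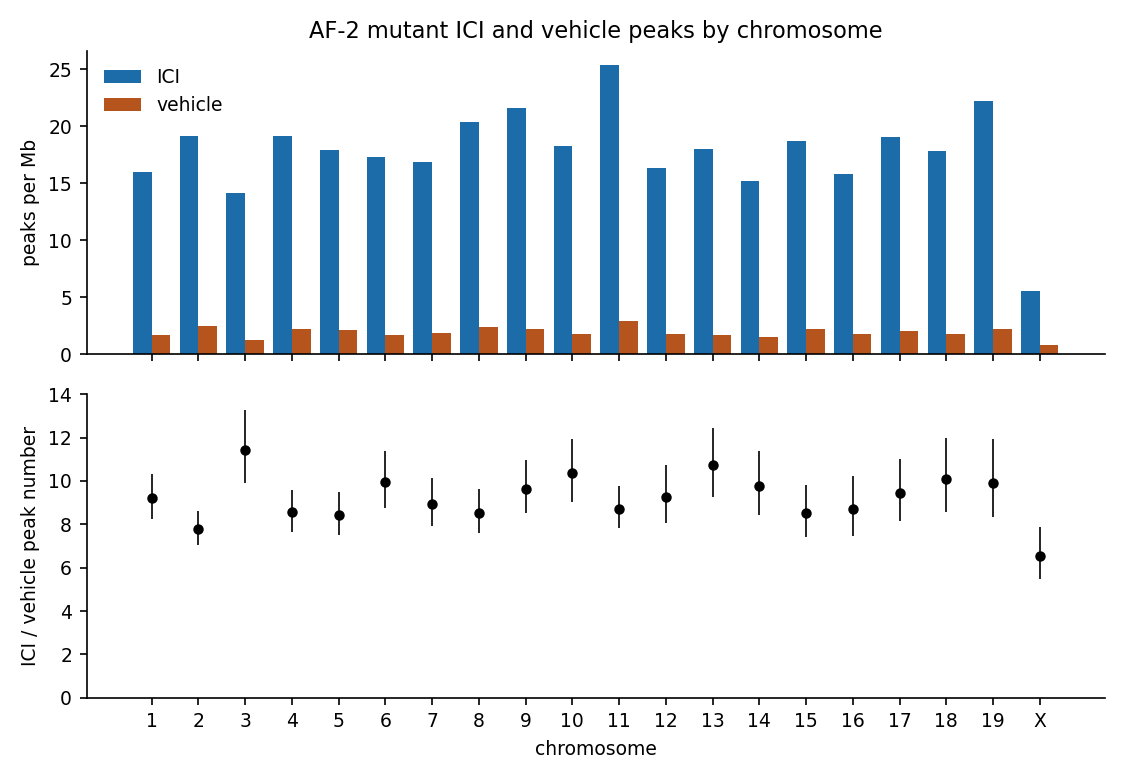
Mutant ICI and vehicle peaks per Mb by chromosome (upper panel) and the ratio of their numbers (lower panel, with 95% counting intervals). Densities of both lists are highest on chromosome 11 and lowest on X, where the ratio is 6.56, and the highest ratio is 11.4 on chromosome 3.

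X held 2.50% of ICI peaks with a vehicle peak (1.98 to 3.12) and 1.98% of those without (1.85 to 2.12), and 3.28% of vehicle peaks without an ICI peak (2.53 to 4.17). Cutting each chromosome into 5 equal parts from its start, every class had its smallest share in the first part and its largest in the last. ICI peaks with a vehicle peak had 13.0% there (11.8 to 14.2) and 27.5% in the last part (26.0 to 29.2), ICI peaks without one 13.5% (13.1 to 13.8) and 26.8% (26.4 to 27.3), and vehicle peaks without an ICI peak 13.4% (11.9 to 15.0) and 25.4% (23.5 to 27.4). The counting intervals of the classes overlapped in both parts. Of the 42761 ICI peaks without a vehicle peak, 21 lay on sequence not placed on a chromosome. Of the 1952 vehicle peaks without an ICI peak, 1 did. These counts come from classes of very unequal size and show no contrast between them.

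The gaps between ICI peaks were uneven, with a median of 15.5 kb and a mean of 55.9 kb. The longest stretch without an ICI peak, 10351 kb on chromosome X at 23084551 to 33435335, held 0 mutant vehicle peaks and 1 mutant tamoxifen, 2 wild-type ICI and 4 wild-type tamoxifen peaks. The next stretches, 7683 kb of chromosome 7 (39021547 to 46704589) and 5874 kb of X (58052031 to 63925572), also held 0 vehicle peaks of either genotype.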

How the data were processed

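The authors deposited 1 peak list per library in mm9 coordinates, and the lists hold positions (chromosome, start, end and a name) without height, score or p-value. The submitters' processing notes name HOMER 4.10.3, bedtools 2.24.0, Bowtie2 2.1.0, Picard and SAMtools, without roles. Peak threshold and use of input: not given in the sources used here. Overlaps, spacing and runs were computed from the deposited lists with Python 3.11.15, numpy 2.4.6, pandas 2.3.3 and scipy 1.17.1, and tested on simulated lists. Both overlap counts were compared with bedtools 2.31.1 and 0 differed. Shares have exact (Clopper-Pearson) 95% intervals, differences Newcombe intervals and ratios exact intervals. With 1 library per group no test was made, since peaks are not replicates. The peaks, classes and measures were chosen with earlier results of these data known. Regions were named by rule: the 3 windows with most peaks of each class (ties by chromosome and start), the 5 clusters with most ICI and the 3 with most vehicle peaks, the 3 farthest vehicle peaks, the 3 longest stretches without an ICI peak, and the first peak of each class on chromosome 1. Gene placement, a list of estrogen target genes and estrogen response elements were planned, but no genome or annotation of mm9 was used here.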

Additional observations from a re-analysis of the deposited data

How the results depend on the processing

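Of 69 recomputed values of the main results, 40 stayed within the main value's 95% interval, 23 moved outside it and 6 changed sign; of 40 further values for single lists, 33 stayed, 7 moved and 0 changed sign. Restriction to chromosomes 1 to 19, with or without X, moved no main result outside its interval. With an overlap of at least 100 bp, 54.7% of vehicle peaks had an ICI peak and 6.00% of ICI peaks a vehicle peak; the gap in vehicle peaks inside clusters was 6.22 points, and that in vehicle peaks with a non-overlapping ICI peak within 10 kb turned to -2.12. With midpoints within 1 kb counted as shared, these values were 70.3%, 8.93%, 10.3 and 10.8. The same setting gave 50.2 points for vehicle peaks in the other 4 lists and 6.07 for vehicle peaks with another vehicle peak within 10 kb. It turned the differences between ICI peaks with and without a vehicle peak to 4.55 points for another ICI peak within 10 kb and to 0.26 for clusters. By construction it lets peaks of close pairs share 1 match. With peaks within 1 kb merged in each list, the ratio of ICI to vehicle number was 8.33, 7.44% of ICI peaks had a vehicle peak, 9.28% of ICI peaks were in clusters, and the gap in vehicle peaks was 5.82 points inside clusters and turned to -3.63 for a non-overlapping ICI peak within 10 kb. That last difference also turned to -0.59 at 5 kb. The cause of these changes of sign was not tested.

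Cluster values depend on their definition. With gaps of up to 5 kb, 2.47% of ICI peaks were in clusters and with 25 kb 43.6%; with at least 3 peaks 36.1% and with at least 10 peaks 2.42%. The gap in vehicle peaks inside clusters was then 1.79, 21.9, 26.8 and 1.94 points, and that in ICI peaks was -0.34 at 5 kb, -4.00 at 25 kb and turned to 0.19 with at least 10 peaks. The alternatives for gene starts and estrogen response elements were not run, since no mm9 genome or annotation was used here. No paired analysis was possible because each group has 1 library. Read depth is unknown, so the sensitivity of each list could not be compared.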

Other observations

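Neighbouring peaks within 1 kb of each other formed 4093 pairs in the mutant ICI list, with a median spacing of 577 bp (quartiles 440 and 752), and 83 pairs in the mutant vehicle list, with a median of 592 bp (quartiles 441.5 and 699.5). Of the 4093 ICI pairs, both peaks overlapped a vehicle peak in 39, one did in 558 and neither in 3496. Counted by peak, 600 of the 7836 ICI peaks with another within 1 kb overlapped a vehicle peak, where the whole list gave 6.71%. In 37 of the 83 vehicle pairs both peaks overlapped an ICI peak, in 27 only 1 did and in 19 neither. Counted by peak, 100 of the 165 vehicle peaks with another within 1 kb overlapped an ICI peak, where all vehicle peaks gave 61.2%. The ICI pairs numbered 1575 at spacings of 400 to under 600 bp and 1074 at 600 to under 800 bp, and the vehicle pairs 26 and 33. These counts were looked at after the spacing was seen, and the difference was not tested.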
